A study of Mus musculus with 12 samples.

Results

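Glycolysis and the response to low oxygen were examined through 37 genes in NK cells and CD8 T cells taken from tumours. The genes were listed by function as glucose and lactate transporters (3), glycolytic enzymes (15), enzymes that steer flux into or out of glycolysis (3), Hif1a with the prolyl hydroxylases that control its protein (3) and other target genes of the hypoxia-inducible factors, HIF (13). They were 37 of 54232 genes in the count table. The tumours came from MC38 cells, a mouse colon adenocarcinoma line, injected under the skin, and were taken after 8 to 10 days. Each library was made from 300 sorted cells. The NK gate took CD45+ cells that carried NK1.1 and lacked CD3ε, and the CD8 gate took CD45+ cells with both CD3ε and CD8a on the surface. The host mice, 6 to 12 weeks old and on a C57BL/6N background, were wild type (WT), lacked the Janus kinase TYK2 (labelled TYK2KO, here KO) or made a TYK2 protein with an inactivating point mutation in the kinase domain (labelled TYK2KE, here KE). Both alleles are carried by all cells of the mouse, and the injected tumour cells were the same line in each group. Each of the 6 groups had 2 libraries. Nothing stated that the libraries of a group came from separate animals, so p-values measure only the spread between these samples, which may be technical.

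Glycolysis breaks glucose down to pyruvate, and lactate dehydrogenase and a lactate exporter let the pathway run on without oxygen. HIF-1α, the protein of Hif1a, is hydroxylated and degraded when oxygen is present, and when oxygen is short it binds the HIF response element and raises the transcription of glucose transporters, nearly every glycolytic enzyme and genes of oxygen supply and mitochondrial turnover. Activated lymphocytes also raise these transcripts without hypoxia, and effector functions of NK and CD8 T cells draw on glycolysis.

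The promoter sequences of 6 genes are shown because they cover glucose entry, the first enzyme, an enzyme that makes NADH and one that makes ATP, the last enzyme and the HIF subunit itself, and because their transcripts are followed library by library in the next paragraphs. Each is the stretch from 200 to 21 bases before the transcription start in RefSeq (GRCm38.p6), 180 bases, read 5′ to 3′ on the strand of the gene. Capitals mark the HIF response element core, ACGTG, or its GCGTG form, on either strand, and a palindromic CACGTG counts once on each strand. Where the table lists more than 1 start, the one with most ACGTG matches is shown, which concerns Ldha, whose other start has none. The stretches lie at chr4:119108545-119108724 (Slc2a1, plus strand), chr6:82774475-82774654 (Hk2, minus), chr6:125165794-125165973 (Gapdh, minus), chrX:106186900-106187079 (Pgk1, plus), chr7:46845604-46845783 (Ldha, plus) and chr12:73907667-73907846 (Hif1a, plus).
Slc2a1: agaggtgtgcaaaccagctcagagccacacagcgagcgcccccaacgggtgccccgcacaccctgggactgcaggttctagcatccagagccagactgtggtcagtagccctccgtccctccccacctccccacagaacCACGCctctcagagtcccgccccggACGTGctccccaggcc
Hk2: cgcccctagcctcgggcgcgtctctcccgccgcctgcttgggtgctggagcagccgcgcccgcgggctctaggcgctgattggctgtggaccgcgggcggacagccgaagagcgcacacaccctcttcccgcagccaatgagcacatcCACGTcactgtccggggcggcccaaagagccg
Gapdh: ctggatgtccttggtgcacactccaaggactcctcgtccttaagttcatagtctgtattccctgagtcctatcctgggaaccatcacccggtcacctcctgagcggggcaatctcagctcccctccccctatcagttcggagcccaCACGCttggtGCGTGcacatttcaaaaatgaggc
Pgk1: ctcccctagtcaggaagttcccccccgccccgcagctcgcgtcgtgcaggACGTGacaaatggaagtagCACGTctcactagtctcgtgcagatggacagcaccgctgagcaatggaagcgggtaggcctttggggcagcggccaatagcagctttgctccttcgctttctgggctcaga
Ldha: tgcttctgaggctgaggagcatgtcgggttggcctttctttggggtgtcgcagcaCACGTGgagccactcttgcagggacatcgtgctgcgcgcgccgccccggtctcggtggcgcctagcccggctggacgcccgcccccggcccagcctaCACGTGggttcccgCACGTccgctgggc
Hif1a: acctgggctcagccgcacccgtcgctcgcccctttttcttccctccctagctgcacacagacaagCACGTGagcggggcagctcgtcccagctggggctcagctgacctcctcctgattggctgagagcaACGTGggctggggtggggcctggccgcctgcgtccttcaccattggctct
Ldha carried 5 matches to ACGTG in this stretch, Hif1a 3, Pgk1 2, Hk2 1 and Slc2a1 1 beside 1 of the GCGTG form, whereas Gapdh carried 2 of the GCGTG form alone. Over the 250 bases before the start, ACGTG was present for 21 of the 34 members that had an entry (61.8%) and for 18.5% of all 27025 genes with one, counting a gene with several starts as soon as 1 of them held it. Over single starts it was 48.1% of 52 for the members and 16.6% of 32851 for all genes. Among the enzymes it was 7 of 15, and among the other HIF targets 8 of 11. Either form was found for 32 of 34 members (94.1%) and for 41.5% of all genes. Slc2a3, Bnip3l and Ndrg1 were not in the promoter table. Many members were listed as HIF targets, so a higher share than over all genes was likely in advance. A match describes the letters and does not show that HIF bound there.

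Total counts lay between 10378761 and 14732882 per library, and 12776 to 14015 genes had a count. Levels are given as CPM, read counts scaled to the same library size with TMM. Levels of Tyk2, the mutated gene, did not separate KO from WT. In NK cells it stood at 60.6 and 68.5 CPM in WT. It was at 55.8 and 104 in the NK libraries labelled KO and 119 and 81.6 in those labelled KE. Both NK KE libraries thus lay above both NK WT libraries, while KO overlapped with each. The CD8 libraries lay at 47.1 to 86.8 CPM, with WT overlapping both mutants. The sort markers followed the labels, since Klrb1c, which encodes NK1.1, was at 1063 to 2243 CPM in NK libraries and at 1.42 to 5.09 in CD8 libraries. Markers of macrophages and monocytes did not follow the sort alone. The summed level of the 16 myeloid markers was 18047 and 15787 CPM in NK WT and 8419 in NK KO 1, but 911 in NK KO 2, 711 and 1287 in NK KE, and 620.2 to 1475 in CD8 libraries. The lysosomal protease gene Ctsd, which lymphocytes also express, made up most of the sum in the low libraries (642 to 883 CPM in NK KO 2 and NK KE). In bulk libraries fewer cells of a type and less RNA per cell cannot be told apart.

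All 37 members passed the filter on low counts, P4ha2 only through NK WT and Adm only through NK KE. Per kb of exon and averaged over the 12 libraries, the most abundant were Ldha (1098 CPM per kb), Aldoa (1042), Gapdh (688), Tpi1 (452) and Eno1 (411). The order depended on the group, and in NK WT Aldoa (1348) lay above Ldha (1222). Slc2a1 (78.1 CPM per kb) and Hif1a (65.5) were intermediate. At the low end were Pfkm (0.914) and Adm (0.846), the muscle phosphofructokinase and the vasodilator adrenomedullin.

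NK libraries of the mutant mice had lower levels of glycolytic transcripts than NK libraries of WT mice, which also held more myeloid transcripts. In 13 of the 15 enzymes, 2 of the 3 transporters and 24 of the 37 members, all 4 mutant libraries lay below both WT libraries, a pattern held by 10.8% of the 13129 genes tested, and no member had all mutant libraries above WT (7.11% of all genes). P4ha2 and Adm passed the filter on low counts only through 1 group, which fixed the place of P4ha2 among the 24, and without both the count was 23 of 35. The median log2 fold change of the members, both mutants against WT, was -1.23, beside -0.05 over all genes tested. The enzymes had a median of -1.19, the transporters -1.42, the flux regulators -2.51, Hif1a and the prolyl hydroxylases -0.64 and the other HIF targets -0.64. With genes at 0 set to the detection floor of 3 counts per library, the median over the members from group means was -1.19. By edgeR's quasi-likelihood test with Benjamini-Hochberg adjustment over all genes (FDR), 0 members were called, with 0.0305% of all genes called, where a call needed an FDR under 0.05 together with a log2 fold change of 1 or more in size. At an unadjusted p under 0.05, 18 of 37 members were lower, beside 6.87% of all genes, and 0 were higher, beside 2.18%. Without P4ha2 and Adm 17 of 35 were lower. DESeq2 called 12 members, all lower, beside 3.41% of all genes, and edgeR without the filter on low counts called 13, all lower, beside 1.58%.

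**Figure D1:**
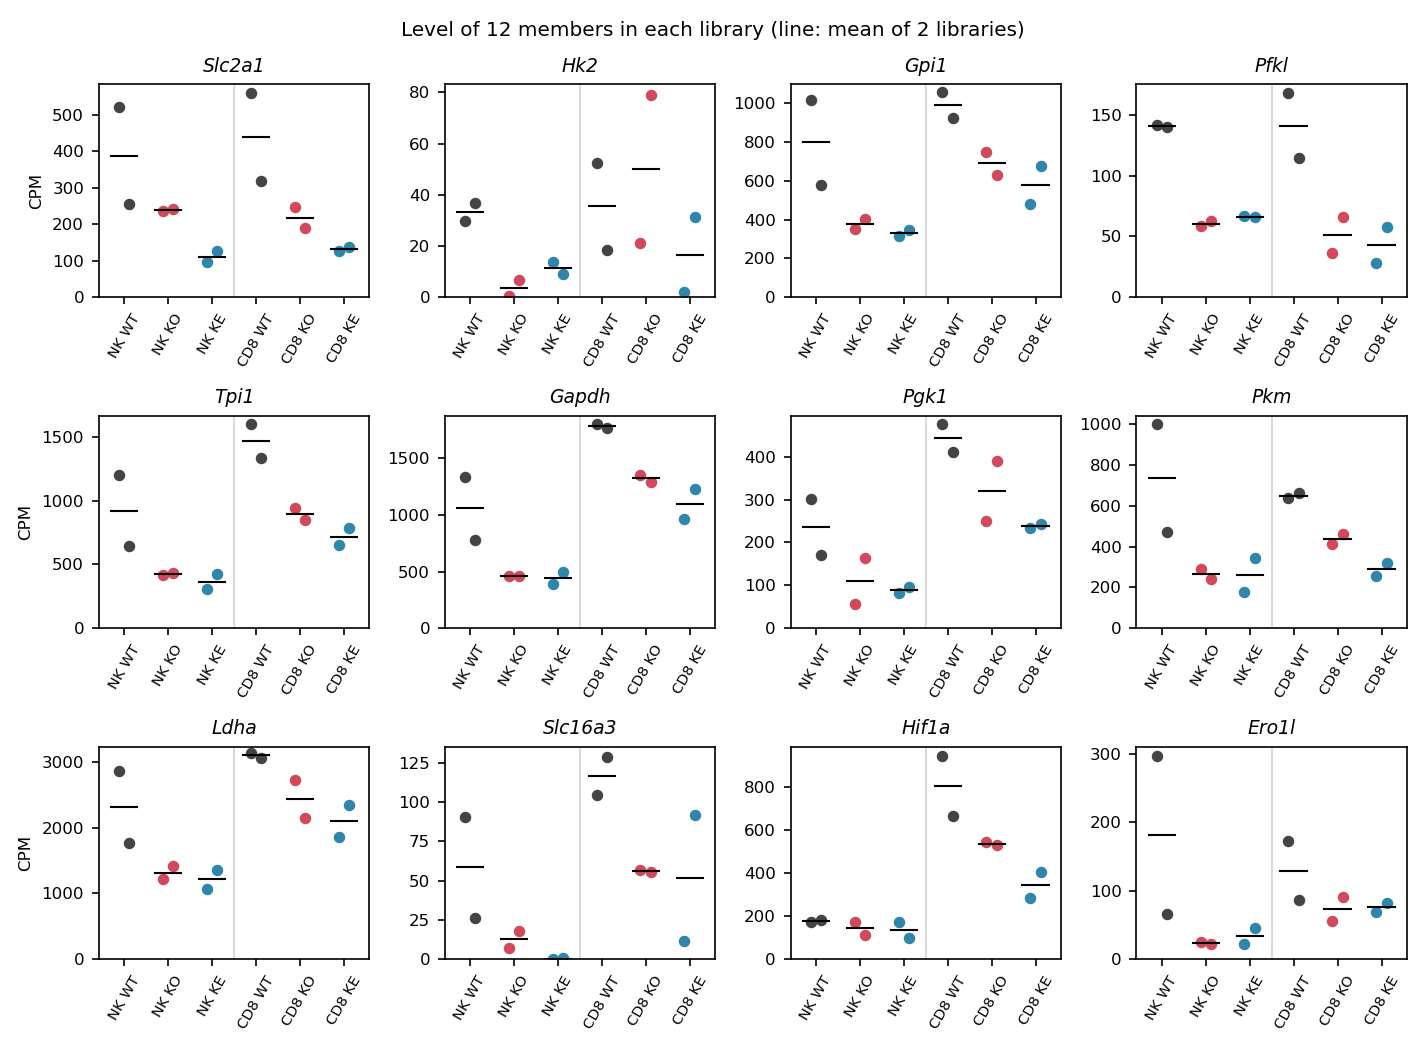
CPM (vertical axes from 0) of 12 members in each library, grouped by cell type and genotype; points are libraries and the line is the mean of 2. In NK cells the WT points lie above all mutant points for every gene drawn, and in CD8 T cells for every gene drawn except Hk2 and Ero1l.

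Among the NK transporters, Slc2a1, which encodes the glucose transporter GLUT1, stood at 520.4 and 256 CPM in WT, against 236 and 241 in KO and 95.3 with 126 in KE. The groups did not overlap, although WT 2 and the KO libraries were close (log2 fold change of both mutants -1.26 ± 0.31 SE, edgeR FDR = 0.239). The lactate exporter gene Slc16a3 (MCT4) was near 0 in KE, at 90.8 and 26.3 CPM in WT, against 7.29 and 18.0 in KO and 0 with 0.594 in KE (-4.87 ± 1.02, FDR = 0.142). Slc2a3, the gene of the high-affinity glucose transporter GLUT3, overlapped between genotypes, since KO 1 at 101 CPM was above WT 2 at 83.2, while the KE libraries were lowest at 28.9 and 38.9. Without WT 1 the log2 fold change was -0.66 for Slc2a1 and -0.62 rather than -1.42 for Slc2a3, and without KE 2 it was -7.38 for Slc16a3.

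Of the NK enzymes, Gapdh had the smallest p of all members. Its transcript, for the enzyme that makes NADH in the middle of the pathway, was at 1336 and 778 CPM in WT, against 462 and 458 in KO and 391 with 496 in KE, which is 2.34-fold lower in the mutants (log2 fold change -1.23 ± 0.20, edgeR FDR = 0.0803). The 4 mutant libraries lay closer together than the WT pair did. Tpi1 (triose phosphate isomerase) stood at 1201 and 640.3 CPM in WT, against 414 and 428 in KO and 303 with 423 in KE (-1.23 ± 0.24, FDR = 0.107). Gpi1, the gene of the enzyme after hexokinase, was at 1018 and 581 CPM in WT, against 351 and 403 in KO and 315 with 349 in KE (-1.18 ± 0.23, FDR = 0.115). Pkm, which encodes pyruvate kinase, was at 1002 and 473 CPM in WT, against 289.8 and 239.6 in KO and 179 with 343 in KE (-1.49 ± 0.31, FDR = 0.134). In each of these WT 1 lay well above WT 2, and both lay above all mutants. Pfkp, the platelet-type phosphofructokinase and, at 119 CPM per kb, the most abundant of the 3 phosphofructokinase genes, had a close WT pair, at 748 and 665 CPM, against 384 and 373 in KO and 284 and 329.8 in KE (-1.05 ± 0.23, FDR = 0.167). Pfkl, the liver-type gene, was even at 141 and 140.3 CPM in WT and 58.2 to 66.4 in the 4 mutant libraries (-1.16 ± 0.39, FDR = 0.404). Ldha, the gene of the lactate dehydrogenase subunit that works mainly from pyruvate to lactate, was at 2863 and 1769 CPM in WT, against 1214 and 1412 in KO and 1073 with 1357 in KE (-0.87 ± 0.20, FDR = 0.188). Pgk1, which encodes the enzyme of the first ATP-yielding step, nearly touched between groups, at 301 and 169.8 CPM in WT, against 57.2 and 164 in KO and 81.7 with 96.0 in KE (-1.25 ± 0.38, FDR = 0.346). Hk2, the inducible hexokinase, was at 29.6 and 36.6 CPM in WT, against 0.465 and 6.70 in KO and 13.9 with 8.99 in KE (-2.37 ± 1.20, FDR = 0.618). Hk1, the constitutive hexokinase, overlapped between genotypes at 17.5 to 36.5 CPM (-0.42 ± 0.69). Pfkm was the other enzyme whose groups overlapped, with at most 5.52 CPM in any NK library. Several of these values rested on WT 1, and without it the log2 fold change was -0.78 for Gapdh, -0.71 for Tpi1, -0.72 for Gpi1, -0.85 for Pkm, -0.49 for Ldha and -0.77 for Pgk1. For Hk2 it was -3.83 without KO 2. Only reads that aligned to 1 place were counted, and 53.9% of the 50-base windows of Pgk1 transcripts, 36.2% of Pgam1, 26.0% of Eno1, 25.8% of Pkm and 25.1% of Gapdh also occur in transcripts of other genes, many of them processed pseudogenes, so the levels of these genes are understated and uncertain. The share was 47.2% for Bnip3, 24.4% for Higd1a, 20.8% for Bnip3l, 17.0% for Ankrd37 and 15.8% for Gpi1, whose levels may be uncertain for that reason too. The search covered both strands and included genes that overlap a member at its own locus, where a read still aligns to 1 place. Exons of other genes overlap those of Bnip3, Higd1a, Ankrd37, Gpi1 and Pkm, so their shares can overstate the reads lost.

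**Figure D2:**
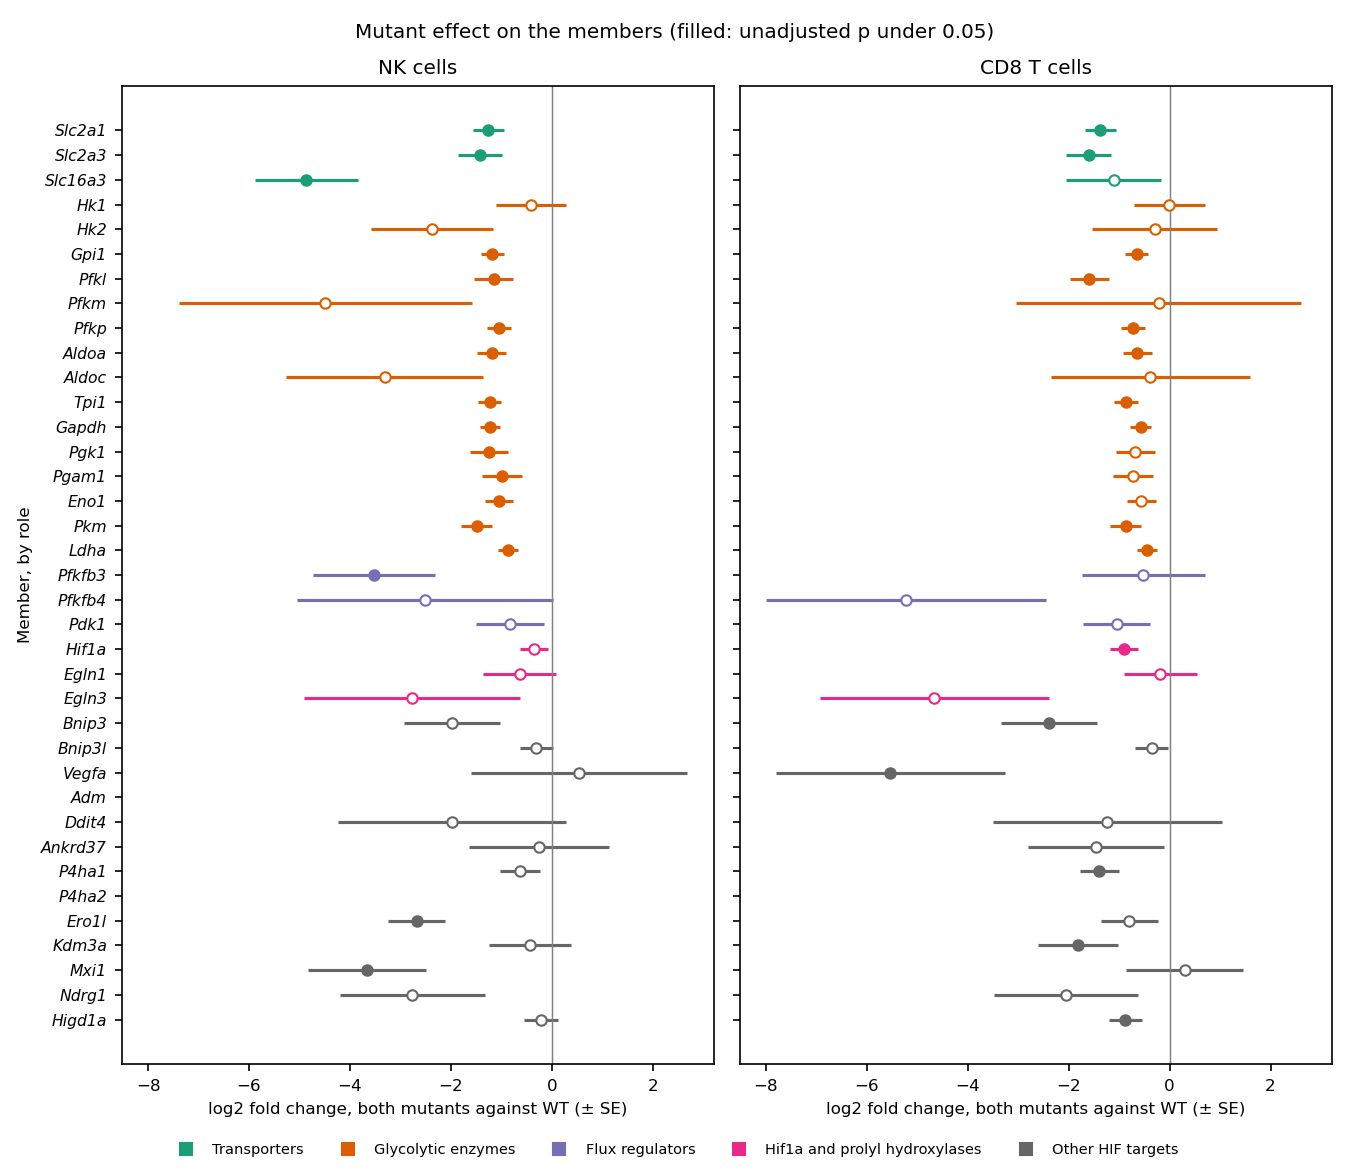
Log2 fold change of both mutants against WT (horizontal axes) in NK cells (left) and CD8 T cells (right), ± SE, with the members in rows by role and filled points at an unadjusted p under 0.05. Drawn are the 35 members per cell type with an SE under 3, without P4ha2 and Adm; all 15 enzymes lie below 0 in both panels.

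The genes that do not encode glycolytic enzymes varied more among themselves. Of the flux regulators in NK cells, Pfkfb3, whose product makes the activator of phosphofructokinase, was at 33.9 and 9.88 CPM in WT and 1.01 to 3.64 in the mutants (-3.52 ± 1.21, edgeR FDR = 0.419), while Pdk1, whose product shuts pyruvate out of the mitochondrial citrate cycle, overlapped at 11.1 to 70.0 CPM. Among the other HIF targets, 6 of 13 had all 4 mutant libraries below WT in NK cells, 3 of 13 were lower at an unadjusted p under 0.05 and 2 had a fold change above 0. Without P4ha2 and Adm these were 5 and 2 of 11 lower. Ero1l, an oxidase of disulfide formation in the endoplasmic reticulum, was at 297 and 65.3 CPM in WT, against 24.9 and 21.4 in KO and 22.8 with 46.1 in KE (-2.68 ± 0.56, edgeR FDR = 0.142). The WT pair was far apart, and without WT 1 the log2 fold change was -1.21. P4ha2, a collagen prolyl hydroxylase gene, had counts in both NK WT libraries, at 25.1 and 15.5 CPM, and 0 counts in each of the other 10 libraries. Against the floor of 3 counts per library, which covers counting error only, this is at least 85.4-fold lower in NK mutants. P4ha2 passed the filter on low counts through NK WT alone, which fixed the direction. Mxi1, which encodes a MYC antagonist, was low throughout, at 9.10 and 10.0 CPM in WT, against 7.83 and 5.30 in KO and 0 with 0.149 in KE (-3.66 ± 1.17, FDR = 0.365). Its log2 fold change was -5.24 to -3.23 when single libraries were left out. Bnip3, a gene of mitophagy, was at 60.6 and 33.2 CPM in WT, against 18.8 and 27.1 in KO and 6.16 with 6.24 in KE (-1.97 ± 0.95, FDR = 0.588). Its relative Bnip3l overlapped between genotypes at 66.6 to 162 CPM, as did Kdm3a, Higd1a, Ankrd37, Ddit4 and Vegfa. Adm had counts in a single NK library, KE 1 at 13.4 CPM.

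Myeloid markers and NK WT 1 moved with these NK differences. Of the 16 myeloid markers, 14 had all 4 mutant NK libraries below both WT libraries, and 13 were lower at an unadjusted p under 0.05 (median log2 fold change -4.69). Within the KO group NK KO 1 with 8419 CPM of myeloid markers had 4893 CPM summed over the 15 enzymes, and NK KO 2 with 911 CPM of myeloid markers had 5767. The summed enzymes reached 13997 and 8041 CPM in NK WT and 4257 to 5767 in the mutants. With the mean myeloid marker level as a covariate, the members' median was -1.32, and 10 rather than 18 were lower at an unadjusted p under 0.05, beside 2.1% of all genes in that fit. NK WT 1 was the highest NK library for 24 of the 37 members, and without it the median was -0.72 and 9 members were lower at an unadjusted p under 0.05, beside 4.3% of all genes. The 7 CD8 T cell markers moved the other way, with a sum of 90.5 and 205 CPM in NK WT, 203 to 373 in KO and 288 to 435 in KE, a median log2 fold change of 1.00 and 2 of 7 higher at an unadjusted p under 0.05. The sums of the 7 NK markers overlapped between genotypes (median 0.31), with 1 of 7 higher at that p. Klrb1c (1063 and 1426 CPM) and Ncr1 (840 and 928 CPM) were lower in NK WT than in every NK mutant library. Gzma went the other way, at 9102 and 9585 CPM in NK WT against 5696 to 7213 in the mutants. Of the neutrophil markers, 1 of the 2 tested was lower at an unadjusted p under 0.05 (median -4.07), with sums of 6.34 and 6.89 CPM in WT and at most 0.184 in the mutants. Csf3r alone made up nearly all of the WT sums, at 6.26 and 6.66 CPM. S100a8, S100a9, Retnlg and Cxcr2 were at 0 in every NK library. Of 10 genes induced by tissue dissociation, 2 were lower at that p (median -0.43) and 4 had all NK mutants below WT. Among the NK libraries the myeloid level was high in both WT libraries and, of the mutants, in KO 1 alone. The covariate thus nearly follows genotype there, and its fit cannot separate the part of myeloid transcripts from genotype in the NK result. That part and the part of the other lists were not tested.

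**Figure D3:**
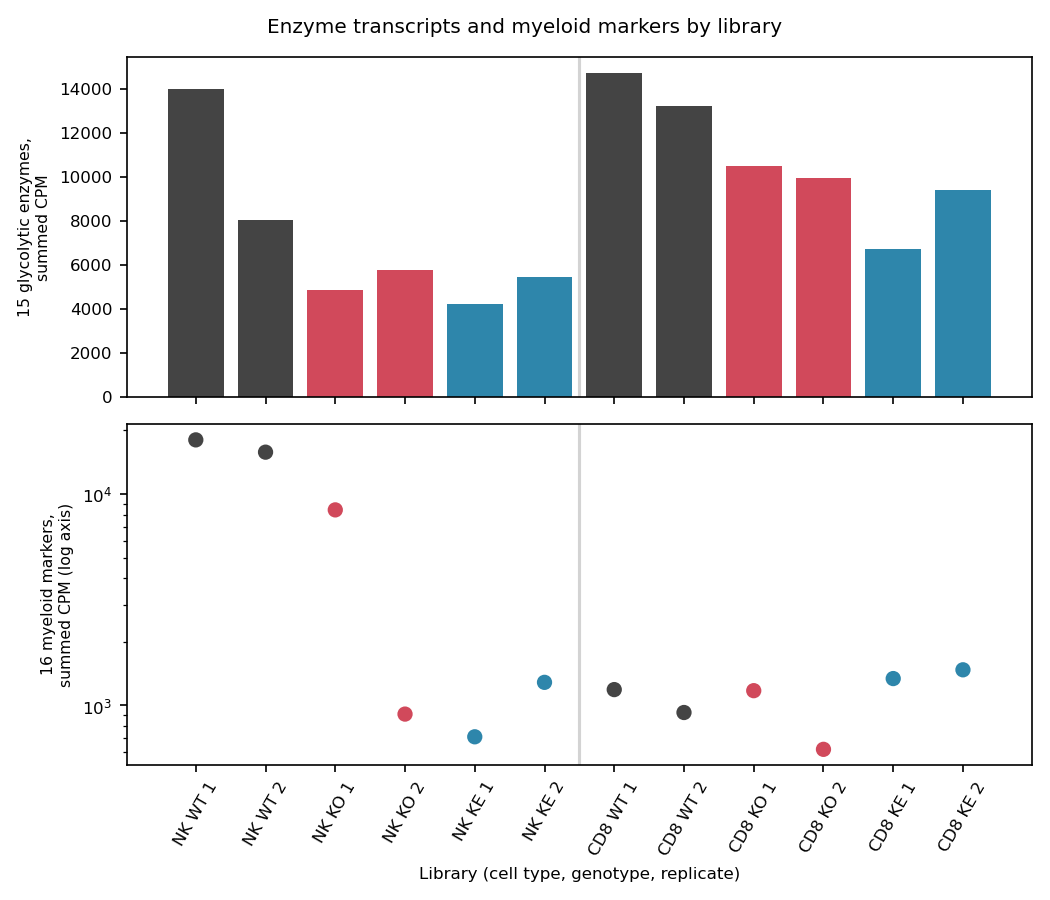
Summed CPM of the 15 glycolytic enzymes (bars from 0, top) and of the 16 myeloid markers (points, log axis, bottom) in each library. Enzyme sums are highest in the WT libraries of each cell type, whereas myeloid sums are high in NK WT 1, NK WT 2 and NK KO 1 alone.

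CD8 libraries, at 620.2 to 1475 CPM of myeloid markers, showed lower levels in the mutants as well. All 4 mutant libraries lay below both WT libraries for 10 of 15 enzymes, 3 of 3 transporters and 20 of 37 members, beside 7.54% of all genes, and 0 members had all mutants above WT (6.84% of all genes). The median log2 fold change of the members was -0.80, beside 0 over all genes, with -0.64 for the enzymes, -1.37 for the transporters, -1.05 for the flux regulators, -0.90 for Hif1a with the prolyl hydroxylases and -1.23 for the other HIF targets. P4ha2, at 0 counts in every CD8 library, and Adm each passed the filter through 1 NK group, and without both the median was -0.87 for 35 members and -1.40 for 11 other HIF targets. Of these 35 members 20 had all mutants below WT and 16 were lower at an unadjusted p under 0.05, and of the 11 targets 5 and 5. edgeR called 0 members (0.213% of all genes), and 16 of 37 were lower at an unadjusted p under 0.05, beside 4.39% of all genes, with 0 higher (2.4%). DESeq2 called Slc2a1, Pfkl and Slc2a3, all lower, beside 2.48% of all genes, and edgeR without the filter called Slc2a1 and Slc2a3, beside 0.882%. The median log2 fold change of the 16 myeloid markers was 0.22 in this comparison, and 1 of them was lower at an unadjusted p under 0.05. Beside Ctsd, the highest of them was Apoe at 194 CPM in CD8 KE 1, against 48.1 and 42.2 in CD8 WT, followed by Lyz2 at 174 CPM in CD8 KE 1, against 18.4 and 61.7, and with the myeloid covariate the members' median was -0.78 and 16 were lower, beside 4.22% of all genes. Markers of other cells moved with the CD8 genotypes as well. Of the stroma markers, 2 of the 5 tested were lower at an unadjusted p under 0.05 (median -5.08), with sums of 39.7 and 105 CPM in WT, 31.9 to 34.7 in KO and 49.3 to 72.8 in KE, and of the neutrophil markers 1 of 2 (median -5.20), with sums of 17.5 and 13.9 CPM in WT and at most 2.07 in the mutants. The tumour epithelial markers went the other way, with sums of 0 and 1.94 CPM in WT, 10.8 to 17.1 in KO and 3.01 to 26.9 in KE (median 4.87), and 0 of the 2 tested had an unadjusted p under 0.05. Mmp9 (14.3 and 12.1 CPM) and Ly6g (3.21 and 1.76 CPM) made up the neutrophil sums in CD8 WT. S100a8, S100a9, Retnlg and Csf3r were at 0 in all 6 CD8 libraries. The part of the stroma, neutrophil and tumour epithelial markers in the CD8 result was not tested. CD8 WT 1 also stood apart, as the highest CD8 library for 24 members and with Gzma at 6271 CPM against 250.3 in WT 2. Without it 5 members were lower at an unadjusted p under 0.05, beside 2.77% of all genes, with a median of -0.63, and without WT 2 there were 10, beside 3.77%.

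Slc2a1 had the smallest p in CD8 T cells, with 560.0 and 319.8 CPM in WT, against 248 and 188 in KO and 126 with 139 in KE, which is 2.59-fold lower in the mutants (log2 fold change -1.37 ± 0.31, edgeR FDR = 0.220). Slc2a3 was at 412 and 284 CPM in WT, against 78.0 and 169.6 in KO and 73.7 with 138 in KE (-1.61 ± 0.44, FDR = 0.379). Both glucose transporters were thus apart from WT in every mutant library. Slc16a3 was at 105 and 129 CPM in WT, against 57.1 and 55.8 in KO and 11.8 with 92.0 in KE, with KE split widely (-1.11 ± 0.95, FDR = 0.919, or -0.70 without KE 1 and -2.17 without KE 2).

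The CD8 enzymes with the smallest p were Pfkl and Tpi1. Pfkl was at 168 and 114 CPM in WT, against 36.3 and 65.8 in KO and 28.1 with 57.6 in KE (-1.59 ± 0.39, edgeR FDR = 0.276). Tpi1 was at 1602 and 1330 CPM in WT, against 939 and 848 in KO and 653 with 783 in KE (-0.87 ± 0.24, FDR = 0.379), and Gpi1 at 1060 and 926 in WT, against 751 and 629 in KO and 481 with 675 in KE (-0.65 ± 0.23, FDR = 0.693). Pkm had a tight WT pair at 638 and 662 CPM, with 411 and 460.1 in KO and 257 and 321 in KE (-0.87 ± 0.31, FDR = 0.693). Gapdh and Ldha differed less in CD8 than in NK cells by their point estimates. Gapdh was at 1808 and 1770 CPM in WT, against 1353 and 1294 in KO and 968 with 1233 in KE (-0.57 ± 0.21, FDR = 0.718). Ldha was at 3132 and 3064 CPM in WT, against 2729 and 2153 in KO and 1858 with 2352 in KE (-0.45 ± 0.20, FDR = 0.722). Pgk1 was at 475 and 411 CPM in WT, against 250.4 and 390.2 in KO and 233 with 244 in KE (-0.68 ± 0.38, FDR = 0.767). Hk2 did not separate the genotypes at all, at 52.3 and 18.6 CPM in WT, against 21.1 and 79.1 in KO and 1.92 with 31.3 in KE (-0.30 ± 1.24, and -1.84 to 0.63 when single libraries were left out). Pfkp overlapped because KO 1 at 737 CPM was above WT 2 at 717, while the other 3 mutant libraries were at 352 to 389.7.

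Hif1a itself was lower in the CD8 mutants, at 944 and 662 CPM in WT, against 542 and 528 in KO and 284 with 405 in KE (-0.90 ± 0.27, edgeR FDR = 0.537). In NK cells it was at 174 and 184 CPM in WT, against 174 and 111 in KO and 172 with 100.1 in KE, so that WT 1, KO 1 and KE 1 were nearly level (-0.36 ± 0.28, FDR = 0.841), and the log2 fold change was -0.58 without KE 1, -0.22 without KO 2 and -0.19 without KE 2. The hydroxylase genes Egln1 and Egln3 overlapped between genotypes in both cell types. P4ha1, a collagen prolyl hydroxylase gene, was at 312 and 263 CPM in CD8 WT, against 75.6 and 161 in KO and 118 with 84.7 in KE (-1.40 ± 0.39, FDR = 0.404). In NK cells P4ha1 was at 126 and 143 CPM in WT and 43.7 to 111 in the mutants (-0.64 ± 0.39, or -0.39 without KO 1 and -1.01 without KO 2). Bnip3 in CD8 T cells was at 147 and 59.1 CPM in WT and 2.01 to 36.0 in the mutants (-2.39 ± 0.95). Higd1a, a gene of a mitochondrial protein, was at 171 and 156 CPM in WT and 65.3 to 123 in the mutants (-0.88 ± 0.33). Whether the counting used strand was not given in the sources used here, and 27.2% of the exon bases of Bnip3, 26.2% of Ankrd37, 22.5% of Higd1a, 19.2% of Ndrg1, 17.4% of Pfkp and 12.3% of Gpi1 overlap a gene on the other strand, so these levels are uncertain. Of the 13 other HIF targets, 5 had all 4 CD8 mutant libraries below WT and 5 were lower at an unadjusted p under 0.05.

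The 2 cell types share no library, but nothing stated that their libraries came from separate animals. Across both, 16 of 37 members had all mutant libraries below both WT libraries in NK and in CD8 T cells alike, beside 1.58% of all genes. These were 10 enzymes (Gpi1, Pfkl, Aldoa, Tpi1, Gapdh, Pgk1, Pgam1, Eno1, Pkm and Ldha), the transporters Slc2a1 and Slc16a3, Hif1a, Bnip3, P4ha1 and Ndrg1. Among the 2034 genes with a mean of at least 100 CPM, 4.38% had this pattern, as did 11 of the 14 members at that level. Scaling to library totals alone left 13 members with the pattern (1.23% of all genes), while the background also moved when libraries were left out. Without NK WT 1 there were 16 members (2.54% of all genes), without NK KO 1 17 (1.81%), without CD8 WT 1 17 (2.92%) and without CD8 KE 1 16 (1.87%). The mutant effect in NK minus that in CD8 T cells was called for 0 members by edgeR (0.0152% of all genes) and for 0 by DESeq2 (2.04%), and 3 members had an unadjusted p under 0.05, all with the more negative change in NK cells, beside 3.31% of all genes. These were Slc16a3 (-3.76 ± 1.46, FDR = 0.852), Mxi1 (-3.95 ± 1.71, FDR = 0.852) and Ero1l (-1.88 ± 0.83, FDR = 0.862).

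**Figure D4:**
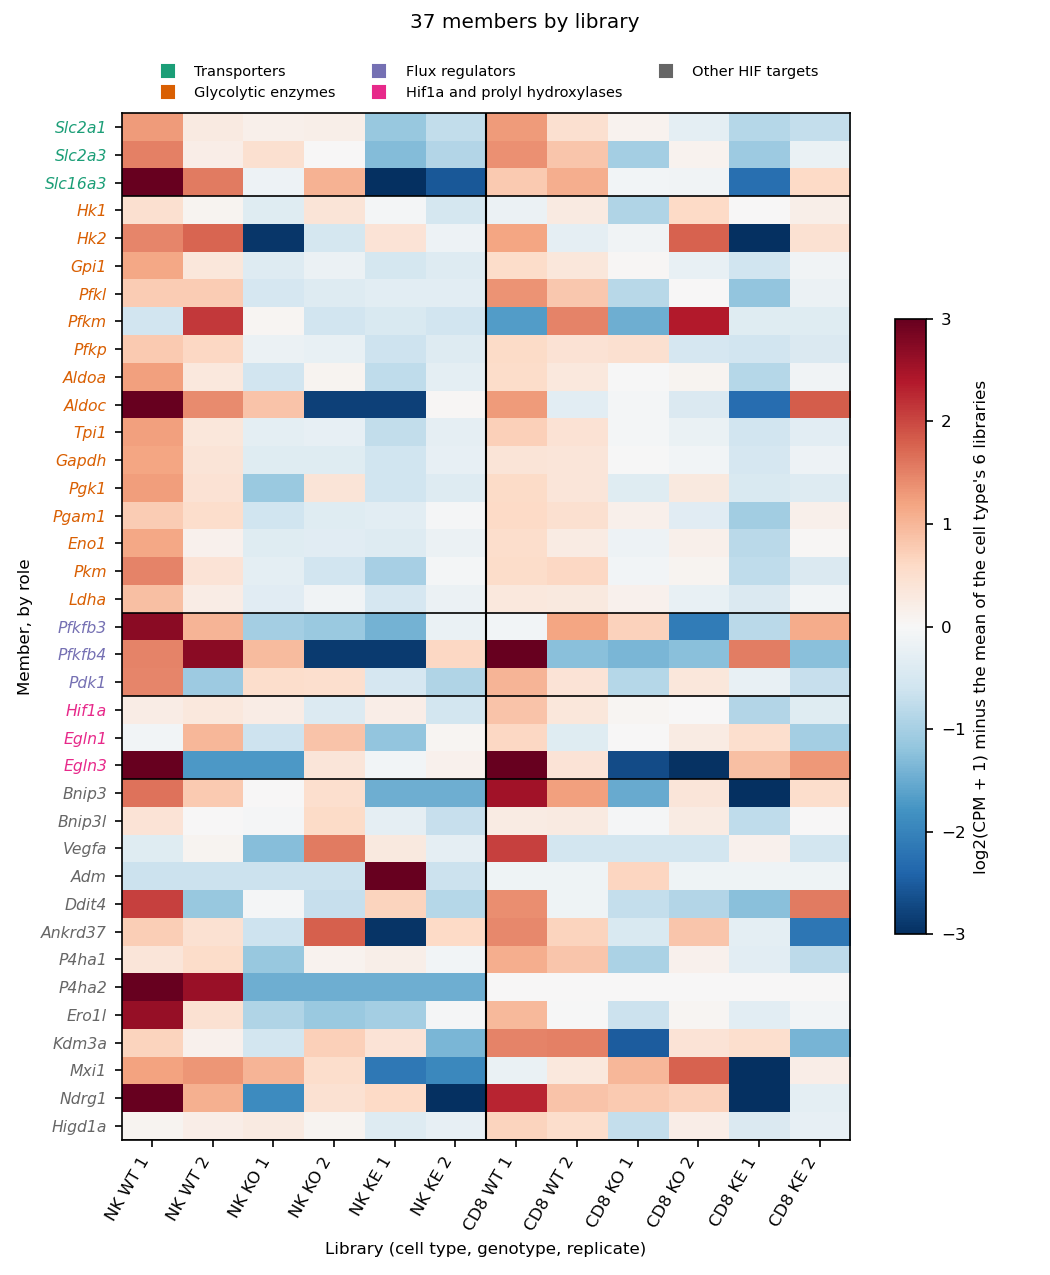
Log2(CPM + 1) of the 37 members (rows, by role) in the 12 libraries (columns), as the difference from the mean of the 6 libraries of that cell type, with colours limited at -3 and 3. Most enzyme rows are red in the WT columns and blue or pale in the mutant columns of both cell types, and NK KE 1 and CD8 KE 1 are the lowest libraries for 17 and 22 members.

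NK KE 1 and CD8 KE 1, the libraries that were lowest for the most members, also had the highest share of mitochondrial counts of their cell type. It was 4.64% in NK KE 1 (95% Wilson interval 4.62 to 4.65%, counting error only) beside at most 4.22% in the other NK libraries, and 7.68% in CD8 KE 1 (7.67 to 7.70%) beside at most 6.62% in the other CD8 libraries. The part of the mitochondrial share in the results was not tested. Without CD8 KE 1 the members' median in CD8 mutants was -0.70, and without NK KE 1 that in NK mutants was -1.15.

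Taken one mutant at a time, each against the same WT libraries, the members' median log2 fold change was -1.08 for NK KO, -1.34 for NK KE, -0.71 for CD8 KO and -1.02 for CD8 KE. At an unadjusted p under 0.05, 14 members were lower in NK KO, beside 4.04% of all genes, and 17 in NK KE, beside 3.99%. None was higher in either, where 2.32% and 2.07% of all genes were. Without P4ha2 and Adm the lower ones were 13 and 16 of 35. In CD8 T cells 7 were lower in KO, beside 2.57%, and 13 in KE, beside 3.04%, and again none was higher (2.27% and 2.58% of all genes). The log2 fold change of Slc2a1 was -1.81 ± 0.38 in NK KE, -0.70 ± 0.37 in NK KO, -1.73 ± 0.38 in CD8 KE and -1.01 ± 0.37 in CD8 KO. edgeR called 0 members in each of these 4 comparisons, with called shares over all genes of 0%, 0%, 0.0533% and 0.0838% for NK KO, NK KE, CD8 KO and CD8 KE. Between KO and KE, edgeR called 0 members in either cell type (0% of all genes). In NK cells 4 members were higher in KO than in KE at an unadjusted p under 0.05, beside 1.77% of all genes, namely the 3 transporters Slc16a3 (5.31 ± 1.41), Slc2a1 (1.11 ± 0.37) and Slc2a3 (1.36 ± 0.54) and Mxi1 (6.23 ± 1.73), each with an FDR of 1. None was lower in KO (2.08% of all genes). DESeq2 called Slc16a3 and Mxi1 of these. In CD8 T cells 0 members reached an unadjusted p under 0.05 between KO and KE in either direction, where 1.71% and 1.96% of all genes did, with Slc2a1 higher in KO by 0.72 ± 0.37.

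The members also differed between the cell types. Over the 3 genotypes, edgeR called 5 members lower in NK than in CD8 T cells and 0 higher, beside 4.59% of all genes called in either direction. Hif1a was 3.50-fold lower in NK cells (log2 fold change -1.81 ± 0.19, FDR = 0.000391), with 100.1 to 184 CPM in the 6 NK libraries and 284 to 944 in the 6 CD8 libraries, and was the single member whose NK libraries all lay below all CD8 libraries, as 2.97% of all genes did. Gapdh (-1.20 ± 0.14, FDR = 0.000726), Pgk1 (-1.29 ± 0.27, FDR = 0.0185), Slc16a3 (-3.50 ± 0.73, FDR = 0.0199) and Mxi1 (-4.09 ± 0.88, FDR = 0.0227) were the others. Leaving out 1 library at a time gave -5.17 to -2.77 for Slc16a3 and -5.15 to -3.12 for Mxi1. For Mxi1 the levels were low and uneven, with 0 to 10.0 CPM in NK and 2.09 to 86.4 in CD8 libraries. Tpi1 (-0.91 ± 0.16, FDR = 0.00867), Ldha (-0.70 ± 0.14, FDR = 0.0139) and Gpi1 (-0.66 ± 0.16, FDR = 0.0371) passed the FDR but not the fold threshold, so that 8 members passed the FDR, beside 5.51% of all genes. At an unadjusted p under 0.05, 14 members were lower in NK cells and 1 higher, beside 10.2% and 9.19% of all genes. The log2 fold change of Slc2a1 was -0.10 ± 0.21 (95% interval -0.58 to 0.37). Vegfa, the gene of the angiogenic growth factor, went the other way, at 5.04 to 42.1 CPM in NK libraries and 0 to 5.01 in CD8 libraries without overlap, as did 1.99% of all genes (FDR = 0.0798). With the myeloid covariate Hif1a and Gapdh were called and the other 3 were not. Without NK WT 2 or CD8 KO 2 there were 2 calls, and without NK KO 1, NK KE 1, CD8 WT 2 or CD8 KE 2 there were 3. Between the WT groups alone, Hif1a was the only member called by edgeR (-2.17 ± 0.34, FDR = 0.0156), beside 0.785% of all genes, or 0.807% by FDR alone, and it was not called without NK WT 1, NK WT 2 or CD8 WT 1. There 6 members were lower in NK cells and 1 higher at an unadjusted p under 0.05, beside 4.94% and 5.42% of all genes. The higher one was P4ha2, which passed the filter through NK WT alone, and without P4ha2 and Adm 6 of 35 were lower and 0 higher.

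**Figure D5:**
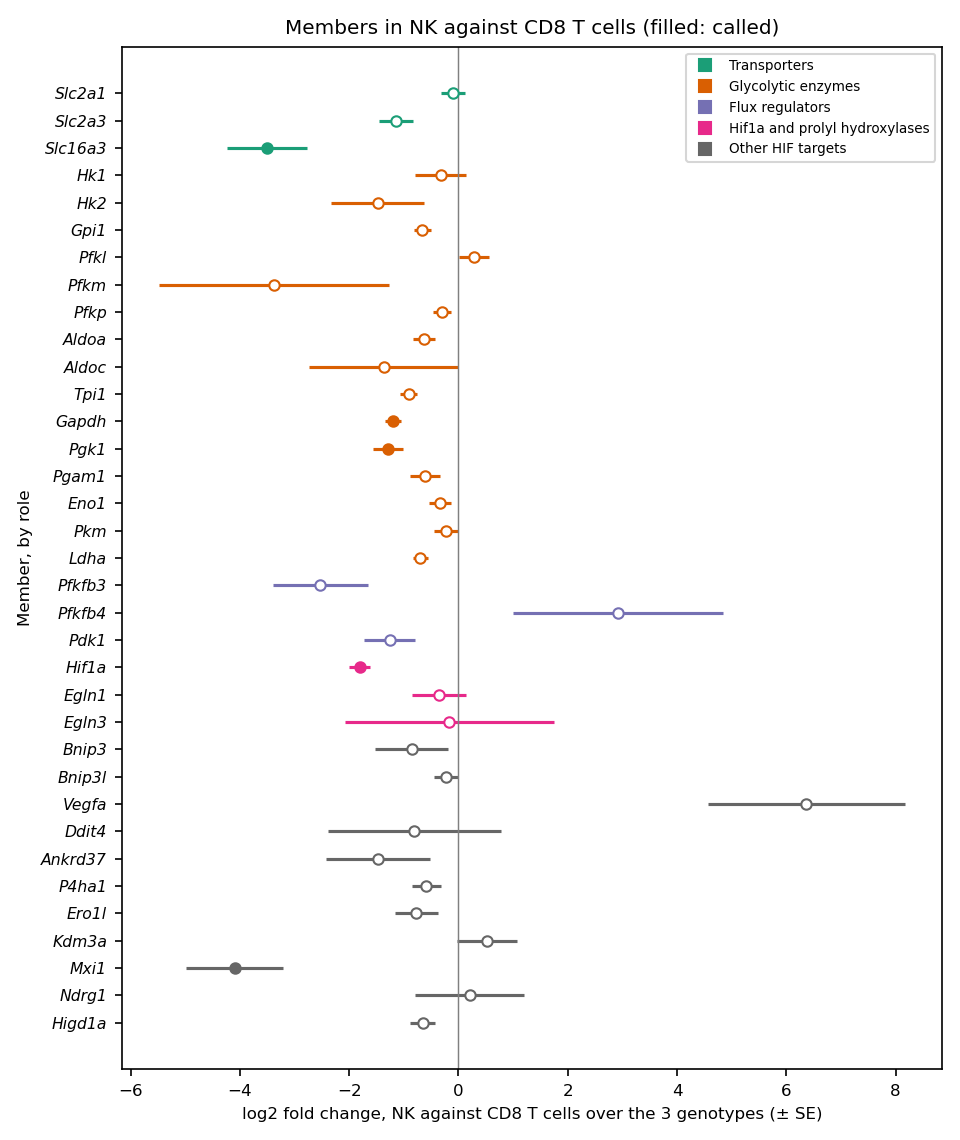
Log2 fold change of NK against CD8 T cells over the 3 genotypes (horizontal axis, ± SE) for the 35 members with an SE under 3, by role; filled points were called by edgeR. Filled points are Slc16a3, Gapdh, Pgk1, Hif1a and Mxi1, all below 0, and Vegfa lies farthest to the right.

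A wider list of 59 genes of glycolysis, of the HIF machinery and of further HIF targets was set beside the members, and 46 of them were tested. The median log2 fold change was -0.17 in NK and -0.32 in CD8 mutants, 7 of 46 (15.2%) had all NK mutants below WT, beside 10.8% of all genes, 8 (17.4%) all CD8 mutants, beside 7.54%, and 1 (2.17%) did so in both, beside 1.58%. At an unadjusted p under 0.05, 7 were lower and 1 higher in NK mutants, beside 6.87% and 2.18% of all genes, and 2 were lower and 1 higher in CD8 mutants, beside 4.39% and 2.4%, with 0 called by edgeR. Ldhb and Nos2, both among the 7 lower in NK mutants, passed the filter on low counts only through NK WT, which fixed their place. Outside NK WT they reached at most 2.30 and 0 CPM. Ldhb was also among the 7 with all NK mutants below WT. The gene with all mutants below WT in both cell types was Bhlhe40, a HIF-responsive transcription factor gene, at 1203 and 1247 CPM in NK WT against 558 to 875 in NK mutants (-0.80 ± 0.22, FDR = 0.289) and 1363 and 1223 in CD8 WT against 581 to 1089 in CD8 mutants (-0.55 ± 0.22, FDR = 0.722). Angptl4, a secreted inhibitor of lipoprotein lipase, was the higher one in NK mutants, at 0 and 0.153 CPM in WT, against 12.4 and 13.0 in KO and 37.7 with 43.5 in KE (FDR = 0.271). Eno3, the muscle enolase, was at 19.7 and 14.9 CPM in NK WT, against 0 and 0.147 in KO and 14.6 with 39.7 in KE (FDR = 0.327). In CD8 T cells the sugar transporter gene Slc2a6 was above 1 CPM only in WT 2 at 12.7 CPM (FDR = 0.662), and Slc2a8 was at 0.0748 and 0.0731 CPM in WT and 9.41 to 27.4 in the mutants (FDR = 0.722). Between NK and CD8 T cells 2 of the 46 were called by edgeR, both lower in NK cells, beside 4.59% of all genes. Eno3 (-3.19 ± 0.74, FDR = 0.0316) was near 0 in the NK KO libraries alone, and between the WT groups the log2 fold change was 0.15 ± 1.15, with 14.7 and 16.5 CPM in CD8 WT. Hilpda, whose product holds back lipid breakdown in lipid droplets, was at 104 to 366 CPM in NK and 142 to 487 in CD8 libraries (-1.22 ± 0.29, FDR = 0.0336).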

How the data were processed

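RNA of sorted NK and CD8 T cells from MC38 tumours was sequenced in 12 libraries. The deposited values are raw counts of reads per gene, which the authors made by trimming with Trimmomatic, aligning 50-base reads with STAR to the mouse genome (GRCm38) and counting uniquely aligned reads. Whether strand was used is not given in the sources used here. Depth was 10378761 to 14732882 counts per library, and a count of 0 allows up to 3 counts, which covers counting error only.

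The 13129 genes whose normalized counts averaged 10 or more were fitted together over all 12 libraries with edgeR 4.0.16 (TMM, robust quasi-likelihood F-test, R 4.3.3), with a common biological coefficient of variation of 109%. Genes were called at a Benjamini-Hochberg FDR under 0.05 over all genes with a log2 fold change of 1 or more in size. Alternatives were DESeq2 1.42.0, no filter, other scaling, a myeloid covariate, a replicate block and leaving out each library. A second identifier with the symbol Aldoa (106 counts) was left out. The members and lists were chosen with earlier results of these data known. Named genes were Slc2a1, Hk2, Ldha, Gapdh, Pgk1 and Hif1a, every called member, and the members with the smallest p (8 in the mutants of each cell type, from those whose WT and mutant libraries did not overlap, and 6 between cell types), with the called genes of the wider list or its 3 with the smallest p. Other genes in the text were chosen after their values were seen. Promoter sequences came from RefSeq (GRCm38.p6), with Ero1l listed there as Ero1a.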

Additional observations from a re-analysis of the deposited data

How the results depend on the processing

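With 2 libraries per group and a coefficient of variation near the mean itself, single genes were poorly resolved, and counts of called members depended on the tool, while the members' median log2 fold change stayed below 0 in NK and CD8 mutants under every alternative run. Where edgeR called 0 members, DESeq2 called 12 in NK mutants (3.41% of all genes), 3 in CD8 mutants (2.48%), 6 in NK KO (2.84%), 11 in NK KE (2.96%), 2 between NK KO and NK KE (1.56%), 5 in CD8 KE (2.5%) and 1 in CD8 KO (1.77%), and it called 8 rather than 5 between NK and CD8 (12%). Over all genes DESeq2 called 448 in NK mutants and 326 in CD8 mutants, where edgeR called 4 and 28. Without the filter on low counts edgeR called 13 members in NK mutants (1.58% of all genes), 2 in CD8 mutants (0.882%), 7 in NK KO (0.823%), 12 in NK KE (1.08%), 1 between NK KO and KE (0.405%) and 2 in CD8 KE (0.78%). The cause was not tested. With the myeloid covariate 10 members were lower in NK mutants at an unadjusted p under 0.05, 2 were called between NK and CD8 and 0 between the WT groups, and the NK against CD8 log2 fold change of Hk2 turned from -1.48 to 0.0595. Leaving out 1 library at a time gave medians of -1.58 to -0.72 in NK and -1.04 to -0.63 in CD8 mutants, 9 to 20 and 5 to 17 members lower at an unadjusted p under 0.05, 2 to 6 calls between NK and CD8, and 0 to 1 between the WT groups. It also spanned 0 for Hk2 (-1.84 to 0.63) and Mxi1 (-1.13 to 0.75) in CD8 mutants and for Slc2a1 between NK and CD8 (-0.30 to 0.0722). Of 665 alternative values for 49 single-gene results, 29 lost a call, 29 gained one and 7 changed sign. Over all genes, replicate numbers showed no pairing of the libraries (correlations of deviations -0.03 to 0.04 over 15 pairs). With single genes this poorly resolved, such correlations cannot tell whether libraries shared an animal, a tumour or a sort. With a replicate block 4 members were called between NK and CD8, 0 between the WT groups and 0 elsewhere.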
